A study of Mus musculus with 112 samples.

Results

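The mitochondrial genome of the mouse encodes 13 proteins, and the count table lists a row for each. Described here are 10 of these 13 genes, chosen by symbol out of the 32285 genes listed: mt-Nd1, mt-Nd2, mt-Nd3, mt-Nd4, mt-Nd5, mt-Cytb, mt-Co1, mt-Co2, mt-Co3 and mt-Atp6. The rule goes by gene symbol. The study sorted 3 cell types from crypts of the upper small intestine and compared aged with young mice by RNA sequencing of transcript 3′ ends, which asks how these cells change with age. All mice were C57BL/6 and carried the Lgr5-eGFP-IRES-CreERT2 knock-in, which puts GFP under the control of the stem cell gene Lgr5, so aged and young animals shared this allele and no mice without it were analysed here. Paneth cells were gated as CD24 high with high side scatter, without GFP. Progenitors were gated as GFP medium or low, and intestinal stem cells (ISCs) as GFP high, both of them CD24 low. All 3 gates were EPCAM high, for epithelial cells, and negative for the dead-cell dye 7-AAD. Aged mice were 23 to 27 months old and young mice 2 or 3 months old. There were 12 aged and 12 young Paneth samples, 10 aged and 10 young progenitor samples, and 12 aged and 11 young ISC samples, of both sexes.

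Mitochondrially encoded transcripts are made inside the organelle from a small circular genome present in many copies per cell. Long transcripts are cut at the tRNAs that separate most of the genes, and the released mRNAs are given short poly(A) tails. Their products are core subunits of the respiratory chain and of ATP synthase, which are assembled with many subunits encoded in the nucleus. mt-Nd1 to mt-Nd5 encode subunits of complex I, which passes electrons from NADH to ubiquinone. mt-Cytb encodes cytochrome b of complex III. mt-Co1, mt-Co2 and mt-Co3 encode the catalytic core of complex IV, which reduces oxygen, and mt-Atp6 encodes a subunit of the proton channel of ATP synthase. Paneth cells are secretory cells of the crypt base that release antimicrobial proteins and lie between the ISCs.

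The 10 genes lie on one strand of the mitochondrial chromosome (MT, plus strand, GRCm38, in the GENCODE M21 annotation). In order along the chromosome, mt-Nd1 covers bases 2751 to 3707, mt-Nd2 3914 to 4951, mt-Co1 5328 to 6872, mt-Co2 7013 to 7696, mt-Atp6 7927 to 8607 and mt-Co3 8607 to 9390. They are followed by mt-Nd3 at 9459 to 9806, mt-Nd4 at 10167 to 11544, mt-Nd5 at 11742 to 13565 and mt-Cytb at 14145 to 15288. mt-Atp6 and mt-Co3 share 1 base, mt-Atp6 shares 43 bases with mt-Atp8, mt-Nd4 shares 7 bases with mt-Nd4l, and mt-Nd5 shares 14 bases with mt-Nd6 on the other strand. Reads over the bases shared by genes on the same strand cannot be assigned to 1 gene of the pair. For mt-Nd5 and mt-Nd6 the strand would be needed, and its setting is not stated by the labels or notes. The last 30 bases of each mRNA are shown because the method reads transcripts from the 3′ end, 5′ to 3′, with the stop codon in capitals. In mt-Co3, mt-Nd4 and mt-Cytb the gene ends in a lone T, and the poly(A) tail completes the stop codon. The sequences are those of the GENCODE M21 transcripts on GRCm38.
mt-Nd1: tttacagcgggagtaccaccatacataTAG
mt-Nd2: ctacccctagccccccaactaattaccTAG
mt-Nd3: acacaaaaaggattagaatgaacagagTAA
mt-Nd4: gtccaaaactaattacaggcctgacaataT
mt-Nd5: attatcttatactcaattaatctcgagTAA
mt-Cytb: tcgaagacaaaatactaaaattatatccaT
mt-Co1: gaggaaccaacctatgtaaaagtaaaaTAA
mt-Co2: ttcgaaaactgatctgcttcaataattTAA
mt-Co3: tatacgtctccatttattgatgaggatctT
mt-Atp6: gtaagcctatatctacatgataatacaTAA

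Several members have near-identical copies in the nuclear genome. On chromosome 1, minus strand, a run of annotated pseudogenes copies neighbouring mitochondrial genes. Gm28661 matched mt-Co2 at 100% of the 681 bases it covers, Gm10925 matched mt-Atp6 at 100% of 678 bases, and Gm28437 matched mt-Co3 at 100% of 783 bases. Gm28438 matched mt-Nd3 at 99.7% of 345 bases. Their 3′ ends are shown because they hold no base that tells them from the mitochondrial mRNAs above, apart from the stop codon letters that the annotated copies lack.
Gm28661, copy of mt-Co2: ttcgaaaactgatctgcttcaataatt
Gm28437, copy of mt-Co3: tatacgtctccatttattgatgaggatct
Gm10925, copy of mt-Atp6: gtaagcctatatctacatgataataca
Gm28438, copy of mt-Nd3: acacaaaaaggattagaatgaacagag

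For mt-Nd4, the chromosome 1 copy Gm28439 covers bases 1 to 876 and so does not reach the 3′ end. The last 30 bases of mt-Co1 are also identical in Gm29216 on chromosome 1 and in Gm13340 on chromosome 2. The copy of mt-Nd2 on chromosome 2, Gm13339, differs at 1 of the 30 bases, C26T (position counted from the 5′ end of the printed stretch, mitochondrial base first). A read that matches a mitochondrial gene and a nuclear copy equally well may not be counted for either, so counts of mt-Co2, mt-Co3, mt-Atp6, mt-Nd3 and mt-Co1 are uncertain.

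The 67 samples came from 112 libraries of 1.08 to 7.57 M counts, since Paneth cells had 2 or 3 technical libraries per animal (69 in all), which were summed. Per sample the median depth was 7.11 M counts (M, mega) in Paneth cells, 4.83 M in progenitors and 4.06 M in ISCs. The 9 Paneth markers found summed to a mean of 235215 CPM (counts relative to the library total, here of nuclear genes only) in aged and 202798 in young Paneth samples, against at most 1829 in the mean of any other group. The 8 ISC markers averaged 16964 CPM in aged and 15414 CPM in young ISCs, 3481 and 3296 CPM in aged and young Paneth samples, and 1876 and 2136 CPM in aged and young progenitors. Progenitors have no defining list here, and their GFP medium or low gate was not checked by markers. The 7 goblet cell markers averaged 32254 and 30915 CPM in aged and young progenitors, 7689 and 7134 CPM in aged and young Paneth samples, and 1485 and 1316 CPM in aged and young ISCs. Whether samples of 1 group came from separate cell preparations beyond the animal is not given, and p-values measure the spread between animals.

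Mitochondrially encoded transcripts dominated the Paneth libraries. The 10 members took 31.4 to 73.3% of all counts in the 24 Paneth samples (median 58.0%), 1.57 to 7.04% in the 20 progenitor samples (median 4.01%) and 3.60 to 9.68% in the 23 ISC samples (median 5.87%). Every Paneth sample lay above every progenitor and ISC sample, while progenitors and ISCs overlapped. Within animals that gave both cell types, the Paneth share was 4.49 to 14.8 times the ISC share in 8 aged animals (median 10.9) and 6.98 to 15.9 times in 7 young animals (median 9.54). Against progenitors of the same animal the ratio was 8.76 to 18.3 in 6 aged animals and 9.59 to 20.2 in 8 young animals. One aged male has the same name in its ISC and progenitor samples and that name with an added suffix in its Paneth sample, and was counted as separate animals. Taken as 1 animal, an alternative added after the data were seen, it gives 9 aged animals with a median ratio of 10.7 to ISCs, and 7 aged animals with ratios of 6.96 to 18.3 to progenitors. The progenitor share was below the ISC share in all 5 aged animals with both (ratio 0.808 to 0.933) and in all 5 young ones (0.651 to 0.985). In bulk samples, more cells of a type and more RNA per cell cannot be told apart, and a share of the library can also move through the other counts in it.

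**Figure D1:**
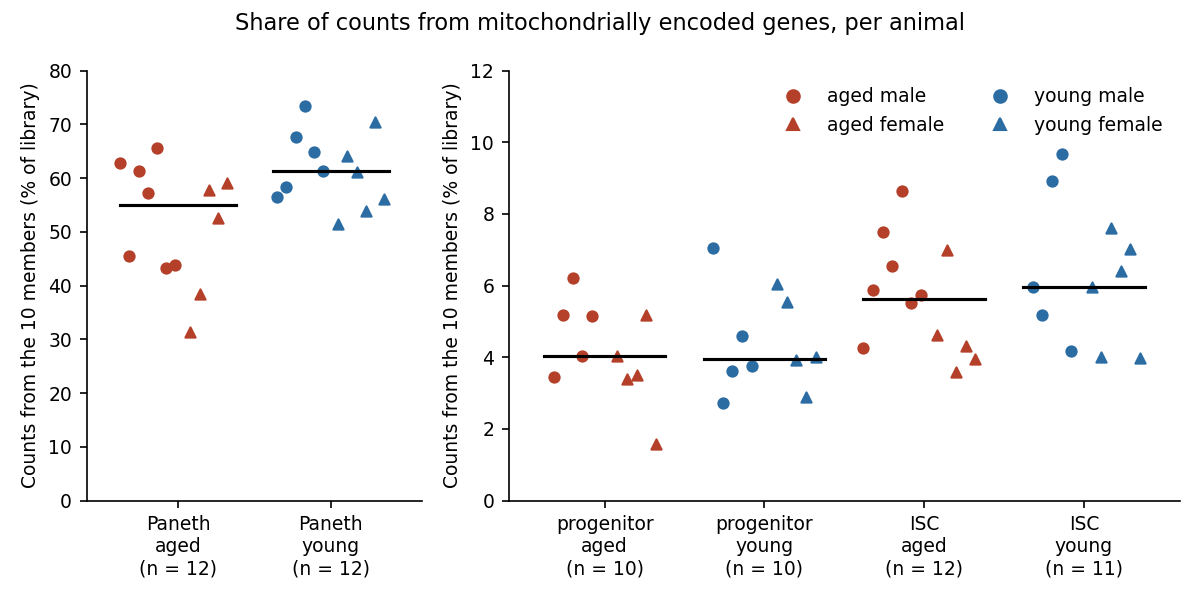
Percentage of all counts that came from the 10 mitochondrially encoded members in each sample, by cell type and age, with the median as a line, circles for males and triangles for females. The 2 panels have different linear axes, both from 0. All 24 Paneth samples lie at 31.4% or more and all other samples at 9.68% or less. The 5 lowest aged Paneth samples lie below every young one.

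Among the complex I members, mt-Nd4 had the highest mean level in every cell type. It averaged 157415 CPM per kilobase of transcript in Paneth cells, 10315 in progenitors and 15481 in ISCs, and alone made up 21.7% of the Paneth libraries, 1.42% of the progenitor and 2.13% of the ISC libraries. mt-Nd1 had 116088 CPM per kilobase in Paneth cells, 10069 in progenitors and 12718 in ISCs, and mt-Nd2 had 53738, 4804 and 4932 in the same order. mt-Nd5, the largest of these subunits, stood far lower at 6768, 913 and 928 CPM per kilobase. mt-Nd3 was near the detection limit at 41.6, 7.77 and 3.36 CPM per kilobase, from 2807 counts over all samples, of which 2475 were in Paneth cells. Counts of a 3′ method do not grow with transcript length, so a level per kilobase lowers long genes relative to short ones. Ranks between members are better read from counts. There mt-Nd4 led in every cell type too, and mt-Nd5 had 2022772 counts in Paneth cells, against 9330670 for mt-Nd2.

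mt-Cytb of complex III was the second most abundant member in Paneth cells at 139330 CPM per kilobase, with 9389 in progenitors and 14882 in ISCs. In progenitors it had more counts than mt-Nd1 (946473 against 862228), though its level per kilobase was lower. Among the complex IV members, mt-Co1 reached 6562 CPM per kilobase in Paneth cells, 1090 in progenitors and 1293 in ISCs. Its neighbours on the chromosome were almost absent from the table. mt-Co2 had 146 counts over all 67 samples (140 in Paneth cells, 2 in progenitors, 4 in ISCs), mt-Co3 had 86 (84, 2 and 0), and mt-Atp6 of complex V had 89 (84, 4 and 1). In Paneth cells these came to 1.36, 0.690 and 0.852 CPM per kilobase. For mt-Co3 in ISCs, 0 of 92.5 M counts allows a level of up to 0.0324 CPM, counting error only. mt-Atp8 and mt-Nd4l, which are not members and lie in the same stretch, had 5 and 48 counts, while mt-Nd6 had 119771. The 3′ ends of the 4 members with the fewest counts (mt-Nd3, mt-Co2, mt-Atp6, mt-Co3) recur in the copies on chromosome 1. Those copies run from base 1 to bases 345, 681, 678 and 783 of the genes in this order. The 3′ end of mt-Co1, which had 1984004 counts, recurs there too, but its copy covers only bases 1063 to 1545, with 1 difference. The part of these copies in the counts was not tested, and the low counts are no measure of how much of these mRNAs the cells held.

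**Figure D2:**
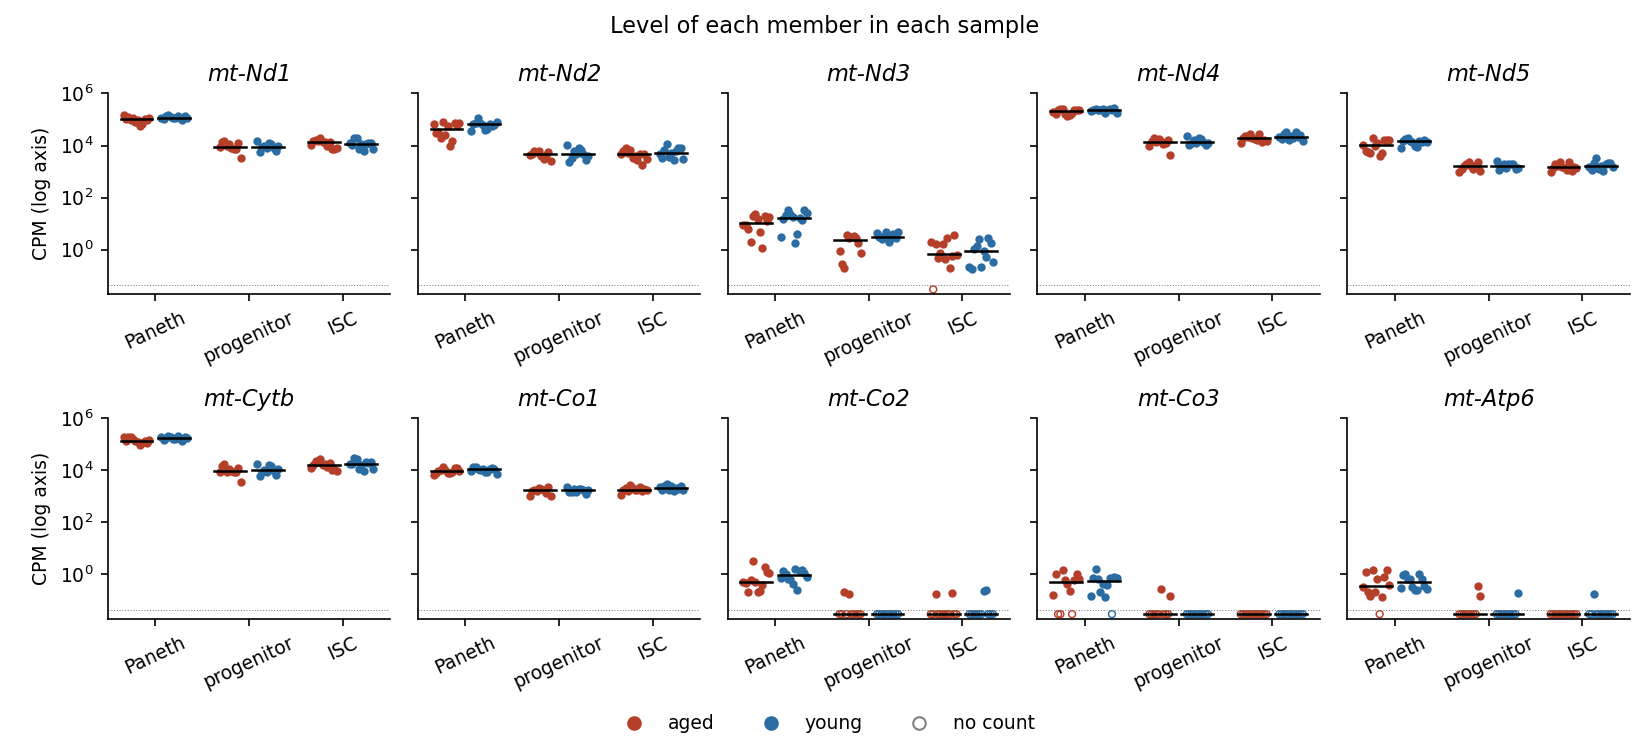
CPM of each member in each sample on a log axis, by cell type, with aged samples left of young ones and the median as a black line. Open circles under the dotted line are samples without a count. The 6 abundant members lie at 966 CPM or more in every sample, and mt-Co2, mt-Co3 and mt-Atp6 reach at most 3.24 CPM.

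For the tests between cell types, counts were fitted together over all 67 samples with edgeR, and 7 of the 10 members passed the filter on low counts, mt-Nd3 without the ISCs: its filter level of 2.07 CPM was reached in 21 Paneth and 14 progenitor samples but in 4 ISC samples, fewer than the 5 needed. Its differences from ISCs are therefore given as values and not counted. The other 6 were all higher in Paneth cells than in ISCs in aged mice, where 17.3% of all genes tested were called higher, and likewise in young mice, against 16.8% of genes. Levels are best seen in mt-Nd4. In aged mice its CPM had a lowest, median and highest value of 142069, 206703 and 256691 in Paneth cells, against 13057, 18783 and 28827 in ISCs, and the cell types did not overlap. edgeR gave a log2 fold change of 5.06 ± 0.23 (SE, adjusted p = 1.75e-25), which is 33.4-fold. For mt-Cytb the CPM was 91322, 135812 and 198711 in aged Paneth cells, against 9726, 16096 and 26135 in aged ISCs (log2 fold change 4.87 ± 0.25, 29.3-fold, edgeR adjusted p = 1.37e-23). mt-Co1 differed least among these 6 members, with 6898, 9425 and 13374 CPM in aged Paneth cells, against 1081, 1790 and 2644 CPM in aged ISCs (4.05 ± 0.18, 16.6-fold, edgeR adjusted p = 3.82e-26).

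The remaining members differed from ISCs by 4.78 ± 0.25 (mt-Nd1), 5.203 ± 0.389 (mt-Nd2), 4.91 ± 0.54 (mt-Nd3) and 4.51 ± 0.31 (mt-Nd5) on the log2 scale in aged mice. In young mice the 6 values ran from 4.19 for mt-Co1 to 5.45 for mt-Nd2, or 18.2-fold to 43.8-fold, and mt-Nd3 stood at 6.03. These folds are larger than the ratio of CPM because they are set against the typical gene: with counts divided by library size alone, the median gene stood 1.61 lower on the log2 scale in aged Paneth cells than in aged ISCs, and 1.85 lower in young mice. On that scale the 6 members were still all called higher. Against progenitors, all 7 members were also higher in Paneth cells, where 13.8% of genes were called higher in aged and 14.1% in young mice. The values ran from 4.10 (mt-Co1) to 5.45 (mt-Nd4) in aged and from 4.16 (mt-Nd3) to 5.77 (mt-Cytb) in young mice on the log2 scale. Without scaling, the median gene was 1.43 lower in aged and 1.70 lower in young Paneth cells than in progenitors.

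Progenitors and ISCs overlapped in each of the 7 members tested. In aged mice 0 of the 6 members other than mt-Nd3 differed between them by edgeR, where 25% of genes did, and 0 of 6 reached an unadjusted p below 0.05. In young mice 1 of these 6 differed, where 22.7% of genes did, a share near the background. mt-Nd3 was not counted for the reason above. It had 1.97, 3.21 and 4.70 CPM (lowest, median, highest) in young progenitors. In young ISCs it had 0.190, 0.926 and 2.77 CPM, from 41 counts in all, with some overlap (log2 fold change 1.86 ± 0.54). mt-Cytb had 6195, 9874 and 17444 CPM in young progenitors, against 9582, 17409 and 29289 CPM in young ISCs, again with overlap (-0.58 ± 0.22, edgeR adjusted p = 0.0470). mt-Nd4, with 10515, 13193 and 23009 CPM in young progenitors, against 15090, 21028 and 34310 CPM in young ISCs, did not pass (-0.50 ± 0.20, edgeR adjusted p = 0.0695). With counts divided by library size alone, the median gene was 0.18 lower in aged and 0.16 lower in young progenitors than in ISCs on the log2 scale.

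The call on mt-Cytb depended on the fit. With the animal as a block, since samples of 1 animal entered several cell types, edgeR did not call it (-0.53, adjusted p = 0.208). Leaving out each young animal in turn ended the call on mt-Cytb in 11 of 16 fits (edgeR adjusted p from 0.0280 to 0.118). The value of mt-Nd3, again not counted, was 0.82 with the animal as a block.

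In Paneth cells the share of counts from the members was lower in aged than in young mice. The aged males 1 to 7 had 62.8, 45.5, 61.3, 57.2, 65.7, 43.3 and 43.9%, and the aged females 1 to 5 had 31.4, 38.5, 57.7, 52.6 and 59.0%. The young males 1 to 6 had 56.5, 58.3, 67.6, 73.3, 64.8 and 61.4%, and the young females 1 to 6 had 51.4, 64.0, 61.1, 53.9, 70.4 and 56.1%. Thus 5 of 12 aged samples lay below all young ones, none lay above them, and the other 7 lay within the young range. The mean was 51.6 ± 10.8% in aged and 61.6 ± 6.73% in young Paneth samples (SD, n = 12 each). Averaged over the sexes, the difference was -10.5 ± 3.82 percentage points (SE), with -9.42 in males and -11.6 in females. The sum over the members was given no p, since the gene list was proposed with earlier results of these data in view.

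Gene by gene, no member passed the test. mt-Cytb had 91322, 135812 and 198711 CPM (lowest, median, highest) in aged Paneth cells, against 137977, 171618 and 205435 CPM in young ones. Its groups overlapped, but the aged median lay below the lowest young sample (log2 fold change -0.52 ± 0.17, edgeR unadjusted p = 0.00476, adjusted p = 0.412). mt-Nd4 had 142069, 206703 and 256691 CPM in aged Paneth cells, against 179925, 234792 and 274158 CPM in young ones, also overlapping (-0.40 ± 0.17, edgeR unadjusted p = 0.0218, adjusted p = 0.596). For mt-Nd1 the values were 57689, 101782 and 154813 CPM in aged Paneth cells, against 95365, 110724 and 148120 CPM in young ones (-0.48 ± 0.20, edgeR unadjusted p = 0.0252, adjusted p = 0.623).

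Among the 6 abundant members, mt-Nd2 had the largest SE. It had 9537, 44862 and 83151 CPM in aged Paneth cells, against 36843, 64890 and 117434 CPM in young ones (-0.67 ± 0.42, edgeR adjusted p = 0.824). mt-Nd5 ran in parallel with 3816, 10073 and 20291 CPM in aged, against 7987, 14727 and 20336 CPM in young Paneth cells (-0.56 ± 0.35, edgeR adjusted p = 0.826). In both genes the lowest aged samples fell below all young samples, and the rest overlapped.

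mt-Co1 had 6898, 9425 and 13374 CPM in aged Paneth cells, against 7283, 11039 and 13504 CPM in young ones, nearly the same range (-0.32 ± 0.16, edgeR unadjusted p = 0.0435, adjusted p = 0.712). The low-count members had wider errors: mt-Nd3 had a median of 10.7 CPM in aged and 17.2 CPM in young Paneth cells (-0.86 ± 0.50, edgeR adjusted p = 0.799), and mt-Co2 0.510 and 0.946 CPM (-0.16 ± 0.75, edgeR adjusted p = 0.987). mt-Co3 (medians of 0.527 CPM in aged and 0.570 CPM in young) and mt-Atp6 (0.367 and 0.503 CPM) had too few counts to be tested.

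In all, 0 of 8 members tested changed with age in Paneth cells at an adjusted p below 0.05, where edgeR called 0.0686% of genes (8 of 11663). At an unadjusted p below 0.05, edgeR had 4 of 8 members and 6.83% of all genes. DESeq2 called 0 members and 29 genes in all. The median log2 fold change of the 8 members was -0.50, against 0.0081 over all genes tested. With counts divided by library size alone, the median gene was 0.24 higher in aged Paneth cells on the log2 scale, and mt-Cytb was at -0.30. Its value stayed negative under all 9 alternatives run (-0.52 to -0.30) but passed in none (edgeR or DESeq2 adjusted p from 0.274 to 0.896).

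Other quantities are set beside the share. The summed share of 24 defensin and lysozyme genes, the granule proteins of Paneth cells, was 8.93% in aged and 6.01% in young Paneth samples (difference 3.18 ± 1.31 points, SE), and 11 of 12 aged samples lay above the young median. It was highest in the aged females 1 and 2 at 16.3 and 15.0%, the 2 samples with the lowest mitochondrial share. With these genes left out of the library total, the age difference in the mitochondrial share was -9.57 ± 3.57 points. Counts from nuclear genes averaged 3.63 M in aged and 2.63 M in young Paneth samples, with library totals of 7.37 M and 6.82 M. These are the total less the mitochondrial counts, and the granule share is of the same total, so neither is independent of the mitochondrial share. Relative to nuclear genes only, the 9 Paneth markers differed by 36636 ± 20702 CPM (SE), and 0 of 12 aged samples lay above all young ones. The 6 stromal and endothelial markers summed to 8.32 to 156 CPM in aged Paneth samples and 1.05 to 85.2 CPM in young ones, with 4 aged samples above all young ones. The 8 immune markers averaged 142 and 120 CPM in aged and young Paneth samples, and the 7 stress and immediate early genes found 435 and 363 CPM. The part of any of these in the mitochondrial share was not tested.

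In ISCs no member passed the test for a change with age. Their share was 3.60, 5.63 and 8.64% (lowest, median, highest) in aged ISCs and 3.99, 5.97 and 9.68% in young ISCs, nearly the same range, and the difference was -0.81 ± 0.74 points (SE). By edgeR 0 of 6 members tested changed, where 0.36% of genes did, and 0 of 6 had an unadjusted p below 0.05. DESeq2 called 0 members and 106 genes. The largest difference was that of mt-Nd2, with 1759, 4633 and 7797 CPM in aged ISCs, against 2734, 5255 and 11199 CPM in young ISCs (-0.42, edgeR adjusted p = 0.706). mt-Nd1 was the flattest, with 7182, 13573 and 19411 CPM in aged ISCs, against 6057, 11226 and 19802 CPM in young ISCs (log2 fold change -0.0037, edgeR adjusted p = 0.999). mt-Nd4 had 13057, 18783 and 28827 CPM in aged ISCs, against 15090, 21028 and 34310 CPM in young ISCs (-0.25 ± 0.17, edgeR adjusted p = 0.750). mt-Cytb, the complex III member, had 9726, 16096 and 26135 CPM in aged ISCs, against 9582, 17409 and 29289 CPM in young ISCs (-0.21, edgeR adjusted p = 0.841). mt-Co1 had 1081, 1790 and 2644 CPM in aged ISCs, against 1553, 2026 and 3026 CPM in young ISCs (-0.19, edgeR adjusted p = 0.723). The groups overlapped over most of their range for each, as for mt-Nd5 with medians of 1464 CPM in aged and 1582 CPM in young ISCs (-0.21, edgeR adjusted p = 0.859). The median over the 6 members was -0.21, against -0.0055 over all genes tested.

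The aged ISC sample of female 2 held 454 CPM of immune markers, where every young ISC sample had at most 8.20 CPM. Stress genes averaged 566 CPM in aged and 369 CPM in young ISCs. Their part in the ISC values was not tested, and without that female, 0 members were called as well.

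In progenitors, too, 0 of 7 members tested changed with age by edgeR, where 0.728% of genes did, and 0 of 7 had an unadjusted p below 0.05. DESeq2 called 0 members and 142 genes. The share was 1.57, 4.04 and 6.22% in aged progenitors, against 2.72, 3.96 and 7.04% in young ones, a difference of -0.24 ± 0.60 points (SE), with 0.46 in males and -0.95 in females. mt-Nd3 had the largest difference, with 0.204, 2.27 and 3.55 CPM in aged progenitors, against 1.97, 3.21 and 4.70 CPM in young ones (-0.83 ± 0.48, edgeR adjusted p = 0.675). mt-Nd4 had 4246, 14115 and 19396 CPM in aged and 10515, 13193 and 23009 CPM in young progenitors, and mt-Nd1 had 3245, 9192 and 15325 CPM in aged and 5511, 9056 and 14999 CPM in young ones. Apart from 1 aged sample below all others, these groups overlapped. The medians of the other abundant members lay close together, with 9322 CPM in aged and 9874 CPM in young progenitors for mt-Cytb, 4665 and 4914 CPM for mt-Nd2, 1656 and 1697 CPM for mt-Nd5, and 1695 and 1742 CPM for mt-Co1. The median log2 fold change of the 7 members was -0.044, against 0.0042 over all genes tested. Enteroendocrine markers averaged 760 CPM in aged and 319 CPM in young progenitors and stromal and endothelial markers 43.5 and 15.96 CPM, and their part in these values was not tested.

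Whether the age effect differed between cell types was tested in the joint fit. Against ISCs, mt-Nd3 is again not counted, since ISCs did not bring it past the filter. For Paneth cells against ISCs, 0 of the other members differed, where 0.0376% of genes did. The median difference in log2 fold change was -0.31 over 7 members, mt-Nd3 among them. For Paneth cells against progenitors it was 0 of 7 members with a median of -0.46, where 0% of genes did. For progenitors against ISCs it was 0 of the members other than mt-Nd3, where 0.00753% of genes did. In each of the 3, 0 members had an unadjusted p below 0.05 by edgeR. The lower values in aged Paneth cells were thus not shown to differ from those in ISCs or progenitors. The age effect in males against females was called for 0 genes in each cell type.

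**Figure D3:**
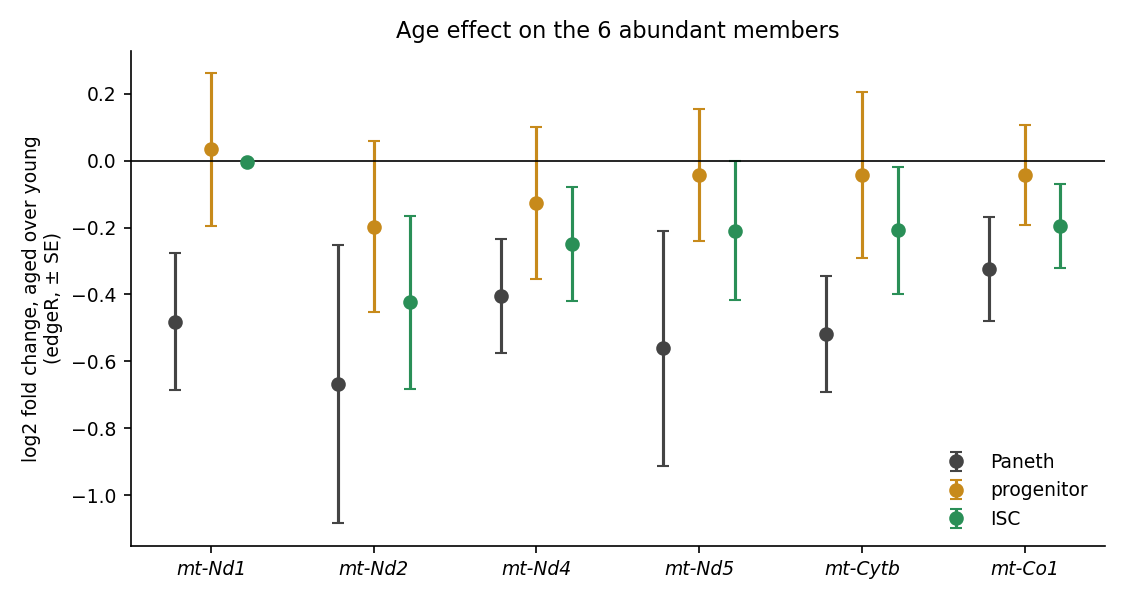
Log2 fold change of aged over young mice for the 6 abundant members in Paneth cells, progenitors and ISCs, from edgeR, with bars of 1 SE. The SE of mt-Nd1 in ISCs, whose p is close to 1, was not computed. All 6 Paneth values lie between -0.67 and -0.32, and none of the points shown passed the adjusted threshold.

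In Paneth cells mt-Nd4 gave 39.4 ± 4.81% of these counts in aged and 37.7 ± 3.53% in young mice (SD, n = 12 each), mt-Cytb 28.3 and 28.1%, and mt-Nd1 19.7 and 19.5%. mt-Nd2 gave 8.49 ± 4.07% in aged and 10.5 ± 2.82% in young Paneth samples. Across the 24 Paneth samples the ratio of mt-Nd1 to mt-Cytb had an SD of 0.158 on the log2 scale, and that of mt-Nd4 to mt-Cytb one of 0.266. The ratio of mt-Nd2 to mt-Cytb varied more, with an SD of 0.769, while that of mt-Nd2 to mt-Nd5 had one of 0.347. So mt-Nd2 and mt-Nd5 varied more closely with each other than mt-Nd2 did with mt-Cytb. mt-Nd2 took 3.04 to 12.9% of the mitochondrial counts in aged and 6.52 to 15.99% in young Paneth samples, and mt-Nd5 0.909 to 3.08% in aged and 1.41 to 2.77% in young ones.

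**Figure D4:**
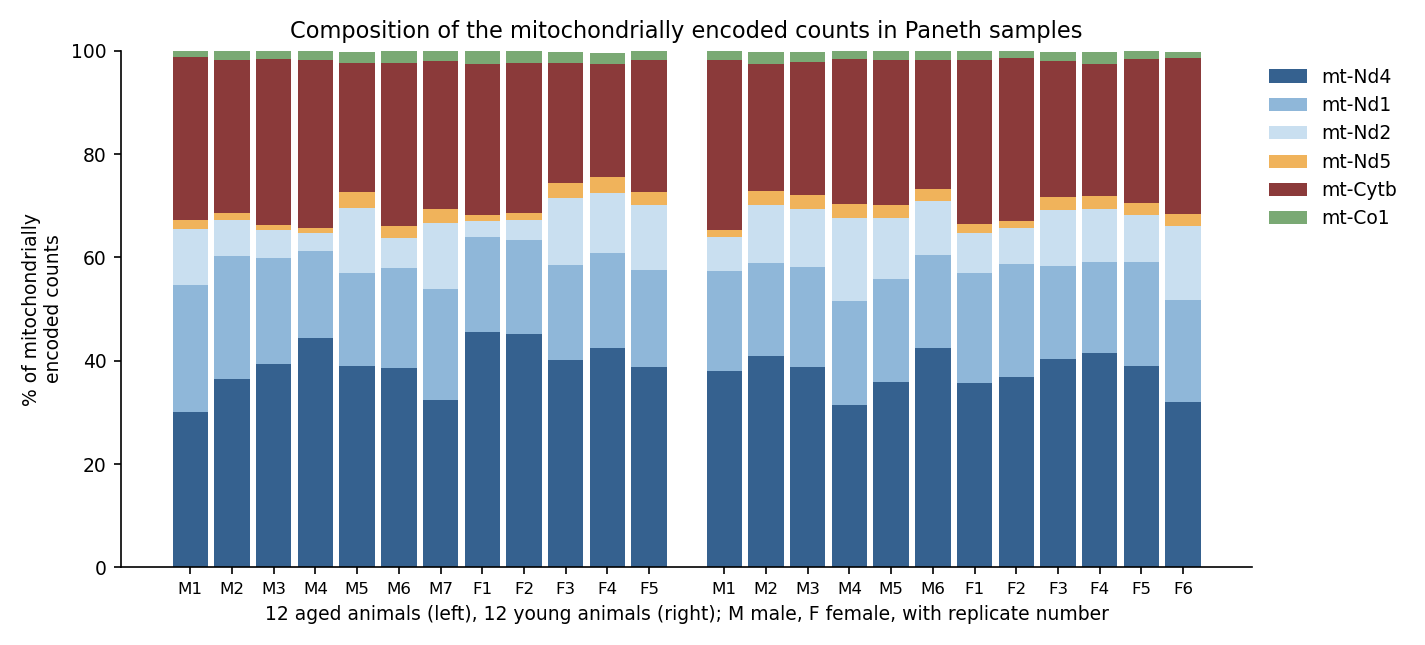
Percentage of all mitochondrially encoded counts that came from each of the 6 abundant members in each Paneth sample, with the 12 aged animals left and the 12 young animals right. Stacked bars start at 0, and the small remainder to 100% is mostly mt-Nd6. mt-Nd4, mt-Cytb and mt-Nd1 lead in every bar, and mt-Nd2 spans 3.04 to 15.99%.

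In ISCs the share of mt-Nd1 among the mitochondrial counts was 22.02 ± 2.39% in aged and 18.6 ± 2.29% in young mice (SD, n = 12 and 11), ranging over 16.6 to 25.2% in aged and 14.7 to 22.2% in young samples. In progenitors it was 23.0 ± 2.58% in aged and 21.6 ± 1.25% in young mice (n = 10 each). The names of 3 aged progenitor samples, the males of 26 and 27 months, end in a number of unknown meaning, as do those of 0 young ones. mt-Nd1 gave 24.6 to 27.1% in these 3, against 19.5 to 24.2% in the other 7 aged and 20.2 to 23.8% in the 10 young samples, and mt-Nd5 gave 2.34 to 2.81%, against 3.78 to 6.55% and 3.34 to 4.80% in the same groups. The part of the names in the age difference was not tested. mt-Nd4 gave 35.1% in aged and 37.6% in young ISCs, and 32.1% in aged and 34.2% in young progenitors. Between cell types, mt-Co1 and mt-Nd5 made up less of the Paneth counts. mt-Co1 gave 1.93% in aged and 1.72% in young Paneth cells, 4.14 and 4.07% in aged and young progenitors, and 3.42 and 3.55% in aged and young ISCs. mt-Nd5 gave 2.01 and 2.27% in aged and young Paneth cells, 4.12 and 3.93% in progenitors, and 2.82 and 2.92% in ISCs.

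The share of mt-Nd5 in the ISC counts also moved with the sample names. Some names end in a number after the cell letter, whose meaning is not given, and others do not. It was so for 10 of 12 aged and 6 of 11 young ISC samples. The number was 2 in the aged males 1 to 3, of 26 and 27 months, and 1 in all others that had one. As no young ISC name ended in 2, age and number cannot be told apart in those males. mt-Nd5 gave 2.28 to 3.48% of mitochondrial counts in aged and 2.31 to 2.69% in young samples with a number, against 3.57 to 3.58% in aged and 3.14 to 3.80% in young samples without one. mt-Nd1 gave 20.4 to 25.2% in aged and 14.7 to 22.2% in young samples with a number, against 16.6 to 20.4% in aged and 17.8 to 19.8% in young samples without one. Within the samples with a number the age difference in the share of all members was -0.59 ± 0.96 points (SE), and edgeR called 0 members and 25 genes.

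Technical libraries of the same Paneth animal were closer than animals were. The share of the members was 30.4 to 68.6% over 35 libraries of aged and 49.8 to 74.1% over 34 libraries of young animals. The SD within animals was 3.55 points in aged and 2.83 points in young mice, against 10.8 and 6.74 points between animal means. Within 1 animal the libraries ranged over 1.52 to 11.6 points, with a median of 4.37, and aged female 4 had the widest range. All libraries of the aged females 1 and 2 and of the aged males 2, 6 and 7 lay below the lowest library of any young animal. With 1 technical library per animal in place of the sum, 0 members were called with age.

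**Figure D5:**
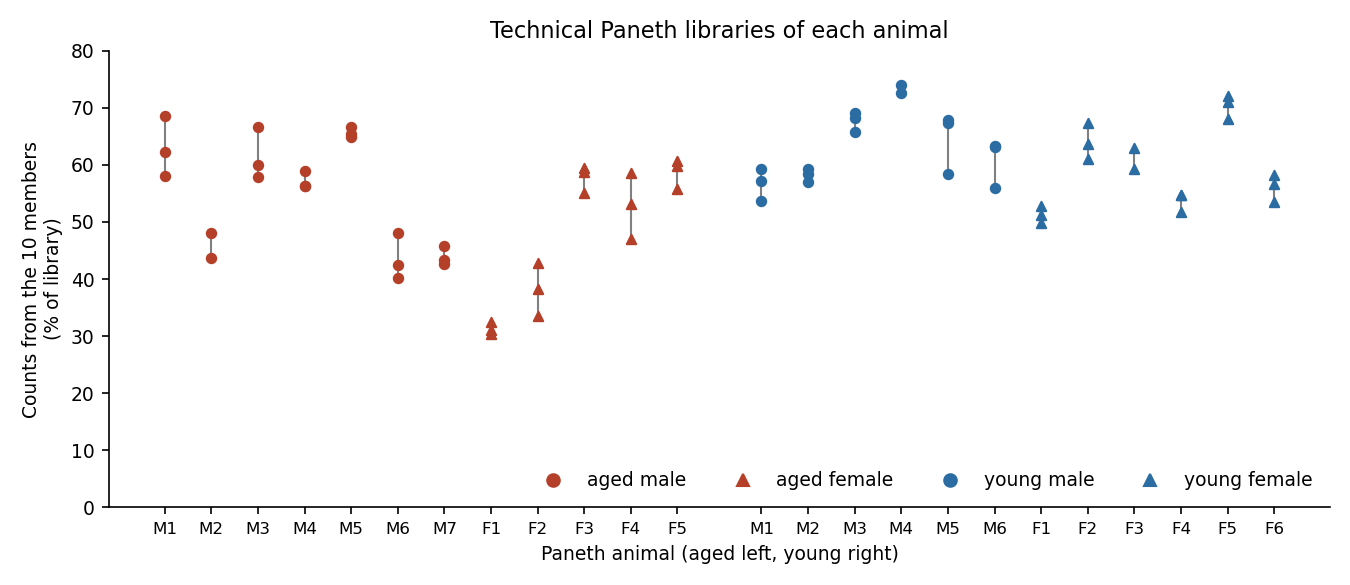
Percentage of counts from the members in each of the 69 technical Paneth libraries, 1 column per animal joined by a grey line, aged animals left and young animals right. Libraries of 1 animal lie within 11.6 points of each other, and those of the lowest aged animal all lie near 31.4%.

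The nuclear genes whose counts ran most nearly parallel to the mitochondrial total were found by the SD over samples of the log2 ratio to that total. Over all 67 samples, where the cell types set most of the pattern, these were Rnase1 (SD 0.977), Gadd45g (1.24), Malat1 (1.38), Apoa4 (1.56) and Cd24a (1.63), among 3027 genes with at least 50 CPM on average and a median SD of 2.66. Rnase1 encodes a secreted ribonuclease, Malat1 a nuclear long noncoding RNA, and Cd24a the surface protein used to sort Paneth cells. The members themselves had SDs of 0.166 (mt-Cytb) to 0.588 (mt-Co1). Within the 24 Paneth samples the nearest genes were Rps3a1 (0.382), Eif4b (0.406), Rps20 (0.421), Uqcrh (0.429) and Rps3 (0.449), against a median of 0.702 over 1151 genes. Of these, Rps3a1, Rps20 and Rps3 encode proteins of the cytosolic ribosome, Eif4b an initiation factor and Uqcrh a subunit of complex III. mt-Nd2 (0.664) and mt-Nd5 (0.540) were farther from the mitochondrial total in Paneth cells than these 5 nuclear genes.

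Among the nuclear genes that serve the mitochondrial genome, more were lower than higher in Paneth cells when set against ISCs. A list of 59 genes covered its transcription, RNA processing, replication and translation, and regulators of mitochondrial biogenesis. Of these, 56 were tested. Relative to the typical gene, 5 were higher and 14 lower in aged Paneth cells than in aged ISCs, where 17.3% of genes were called higher and 12.8% lower. In young mice it was 5 higher and 16 lower, with 16.8% and 12.4% of genes. Tfam, which packages the mitochondrial genome and starts its transcription, was lower in Paneth cells in aged (log2 fold change -0.69 ± 0.14, edgeR adjusted p = 3.83e-05) and young mice (-0.94 ± 0.14, edgeR adjusted p = 4.88e-08). Mgme1, a nuclease of mitochondrial DNA replication, was lower by -1.09 ± 0.19 in aged and -1.42 ± 0.19 in young mice (edgeR adjusted p = 2.50e-06 and 5.75e-09). Fastkd2, an RNA-binding protein of mitochondrial RNA granules, was lower in aged mice (-1.13 ± 0.19, edgeR adjusted p = 9.84e-07). Lrpprc, which stabilises mitochondrial mRNAs, was lower in young mice (-0.83 ± 0.16, edgeR adjusted p = 2.28e-05) and in aged mice (-0.62 ± 0.16, edgeR adjusted p = 0.00142). Fastk was higher in aged mice (0.71 ± 0.14, edgeR adjusted p = 2.57e-05) and Esrra, a nuclear receptor of mitochondrial biogenesis, in young mice (0.86 ± 0.14, edgeR adjusted p = 1.43e-06). Against progenitors, 2 of the 56 were higher and 7 lower in aged Paneth cells, and 1 higher and 9 lower in young ones. There 13.8% and 14.1% of genes were called higher and 11% and 12% lower, so the lower calls were near the background.

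The nuclear subunits of the complexes that hold the members formed a second list. Of 30 such genes, 3 were higher and 8 lower in aged Paneth cells than in aged ISCs, where 17.3% of genes were called higher and 12.8% lower. In young mice 10 were higher and 9 lower, with 16.8% and 12.4% of genes. Uqcrq of complex III was higher in Paneth cells (0.76 ± 0.15 in aged and 0.96 ± 0.16 in young mice), and Ndufs1 of complex I lower (-0.65 ± 0.11 and -0.58 ± 0.11). In progenitors 25 of the 30 were higher and 0 lower than in ISCs in aged mice, and 24 higher and 0 lower in young mice, where 14.1% and 13.3% of genes were called higher. The medians were 0.48 in aged and 0.49 in young mice, against -0.037 and -0.028 over all genes. Cox5a of complex IV was higher by 0.94 ± 0.12 in aged and 0.93 ± 0.12 in young progenitors than in ISCs (edgeR adjusted p = 4.75e-10 and 1.33e-09), and Uqcrfs1 of complex III by 0.61 ± 0.09 and 0.75 ± 0.09. No member other than mt-Nd3 was called higher in progenitors than in ISCs, and mt-Nd3 is not counted against ISCs for the reason given above. Against progenitors, 19 of the 30 were lower and 1 higher in aged Paneth cells, where 11% of genes were called lower and 13.8% higher. In young Paneth cells 15 were lower and 1 higher, where 12% and 14.1% of genes were, with Uqcrc2 of complex III at -1.16 ± 0.11 and -1.13 ± 0.10.

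With age, 0 of the 56 nuclear genes for mitochondrial gene expression and biogenesis changed by edgeR in any of the 3 cell types. For the 30 partner subunits it was 0 as well. Of all genes tested, edgeR called 0.0686% in Paneth cells, 0.36% in ISCs and 0.728% in progenitors. A count of 0 in lists of this size is near those shares. In Paneth cells Tfam had a log2 fold change of 0.23 ± 0.19 (edgeR adjusted p = 0.904), Lrpprc 0.08 ± 0.25 (edgeR adjusted p = 0.985) and Polrmt, the mitochondrial RNA polymerase, -0.50 ± 0.25 (edgeR adjusted p = 0.731). The medians of the 2 lists in Paneth cells were 0.013 and 0.0095, against 0.0081 over all genes tested.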

How the data were processed

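RNA of sorted cells (1 ng of total RNA each) was sequenced from 3′ ends by SC3-seq, per the labels' protocols. The authors deposited counts per gene and CPM values, which equal the counts relative to each library total to within 4.95e-10. The submitters' processing notes name cutadapt 3.0, STAR 2.7.9a, HTSeq 0.13.5, DESeq2 1.30.1 and the mm10 build (GRCm38), without an annotation release or a strand setting. Rows without a symbol numbered 127, and 0 sample columns were unused.

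Technical Paneth libraries were summed per animal. edgeR 4.0.16 (R 4.3.3) fitted the counts with TMM scaling, a filter at a minimum count of 10, robust quasi-likelihood F tests and Benjamini-Hochberg adjustment over all genes at 0.05. Age was tested within each cell type in groups of age and sex, and cell types in a joint fit. Fold changes are aged over young, Paneth over progenitor or ISC, and progenitor over ISC. CPM values are from the summed counts, and shares and make-up were described without a p. Copies were found with BLAST+ 2.17.0. Similar genes were ranked with a pseudocount of 0.5.

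Alternatives were DESeq2 1.42.0, other scalings, no filter, blocks, single technical libraries and left-out samples. The age test was also run on simulated Paneth counts. These had less spread than the real samples and planted changes larger than those of the members. That run is therefore no measure of the power to find changes of the members' size. Named are all members, the other mitochondrial protein genes, up to 4 called genes of smallest p per list and comparison, and the 5 most similar genes. The members and lists were chosen with earlier results of these data known. Replicate numbers did not pair aged with young samples, but samples of 1 animal did pair across cell types, by origin (median correlation of deviations 0.094 for Paneth and ISC, 15 pairs). Mitochondrial tRNA (22) and rRNA (2) genes were not analysed here.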

Additional observations from a re-analysis of the deposited data

Results flagged for a closer look

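Among 96 groups of 4 to 10 samples checked for a value far from the others, 1 stood out, and chance flags about 1 in 20 such groups. mt-Nd4 had 27936 CPM in aged female 2 of the ISCs, where the other 4 aged females had 13612 to 17074 CPM. The gap to the nearest sample was 0.758 of the group's range, against a critical value of 0.71. The same sample held 454 CPM of immune markers, and the part of these in the value was not tested.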

How the results depend on the processing

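No member changed with age in any cell type under any alternative or with any sample left out. The 7 members tested stayed higher in Paneth cells than in progenitors, and the 6 other than mt-Nd3 stayed higher than in ISCs. In the main fit 13.8% (aged) and 14.1% (young) of genes were higher than in progenitors, and 17.3% and 16.8% higher than in ISCs. Without the filter mt-Co2, mt-Co3 and mt-Atp6 entered too. They had 2, 2 and 4 counts in progenitors and 4, 0 and 1 in ISCs, and are not counted. The count of all genes changed with age in Paneth cells moved more, from 8 to 22 without scaling, 29 by DESeq2 and 2 without the mice of 26 and 27 months. The share difference with age stayed within -11.9 to -8.47 points in Paneth cells, highest without aged female 1, and within -1.14 to -0.45 in ISCs. In progenitors it ran from -0.45 to 0.096, positive without young male 1.

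Progenitors against ISCs depended most on the processing. In young mice mt-Cytb was no longer called without the filter (edgeR adjusted p = 0.0691, 2938 genes called). By the other scalings mt-Nd4 was called as well, where edgeR called 2902 to 3075 of 13287 genes. With animals left out, 1 to 3 members were called, mt-Nd3 included. In aged mice mt-Nd4 and mt-Cytb were called lower without scaling. There 3216 of 13287 genes were called, and the median gene was at -0.18. With the animal as a replicate block 0 members were called in young mice, where 1617 genes were. The replicate number as a block for age gave 0 members in each cell type, where the numbers do not pair samples (median correlation -0.00059 in Paneth cells, 0.034 in ISCs and -0.0093 in progenitors), and the blocks changed no other call on a member.

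Values that changed sign were not called. The log2 fold change with age of mt-Nd1 in ISCs became 0.00079 with sizes from nuclear genes, 0.0029 with the replicate block, 0.025 without the mice of 26 and 27 months and 0.14 in samples whose names end in a number (an alternative chosen after seeing the data), where mt-Nd5 became 0.060. In progenitors without the mice of 26 and 27 months it became -0.062 for mt-Nd1, 0.033 for mt-Co1 and 0.16 for mt-Nd5. For young progenitors against ISCs, mt-Nd2 and mt-Nd5 became -0.033 and -0.028 with DESeq2 size factors, -0.11 and -0.097 without scaling, -0.017 and -0.013 with nuclear sizes, and -0.30 and -0.25 with the animal block. In aged mice the animal block gave -0.44 for mt-Nd2, -0.13 for mt-Nd3 and -0.35 for mt-Nd5. Without scaling, the age effect in Paneth cells minus that in ISCs became 0.092 for mt-Co1 and 0.062 for mt-Nd4, and minus that in progenitors 0.29 for mt-Nd3. With 1 sample or animal left out, the ranges that crossed 0 were -0.11 to 0.084 for mt-Nd1 in ISCs with age, and in progenitors with age -0.090 to 0.17 for mt-Nd1, -0.13 to 0.11 for mt-Cytb, -0.12 to 0.066 for mt-Nd5, -0.12 to 0.045 for mt-Co1 and -0.29 to 0.0061 for mt-Nd2. For progenitors against ISCs they were -0.045 to 0.12 for mt-Nd2 and -0.028 to 0.092 for mt-Nd5 in young mice and -0.12 to 0.015 for mt-Co1 in aged mice. The cause of these changes was not tested. Low counts limit what can be said of mt-Co2, mt-Co3, mt-Atp6 and, outside Paneth cells, mt-Nd3.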
